A study of Mus musculus with 3 samples.

Results

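The genes C1qa, C1qb and C1qc encode the chains of C1q, and their RNA was followed in sorted cells of the adult mouse spleen. The members were chosen by symbol: all probe sets whose platform annotation gave 1 of these symbols alone. This found 5 probe sets for 3 of the 18193 genes on the arrays, 1 each for C1qa and C1qc and 3 for C1qb. Each of 3 cell populations was measured on 1 Affymetrix mouse expression array. The populations were red pulp macrophages, sorted as high for the surface antigen that Adgre1 encodes and for the green fluorescent protein that reports Spic; Spic-positive monocytes, positive for CD11b, Ly6C and the reporter; and Spic-negative monocytes, positive for CD11b and Ly6C without the reporter. All donors were adult Spic(igfp/+) mice, so every group carried 1 reporter allele and none was wild type. Cells bearing CD4, CD8 or B220 were removed from the spleen suspension before the monocyte sort, and it is unclear from the labels whether this also held for the macrophages. The labels do not say how many animals were pooled. With 1 array per group there is no spread between animals and no test, and the number of arrays limits the precision. All differences below are log2 differences between single arrays, and the comparisons share arrays.

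C1q is the recognition unit of the classical complement pathway. Its A, B and C chains each join a collagen-like stalk to a globular head, and all are needed to build the molecule. The heads bind antibody on a target, or bind dying cells directly, and the stalks carry the proteases C1r and C1s, which then cut C4 and C2. Most complement proteins come from the liver, whereas C1q is made largely by tissue macrophages and immature dendritic cells, and it also helps phagocytes to take up dying cells. Red pulp macrophages are the phagocytes of the spleen that clear aged red blood cells, and Spic is an Ets-family transcription factor needed for their development.

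The C1q genes lie side by side on chromosome 4 of the GRCm38.p6 assembly, within 18.7 kb, from position 136880126 to 136898844. C1qb spans 136880126 to 136886200, C1qc 136889801 to 136892936 and C1qa 136895916 to 136898844. Because the genes moved together on these arrays, the stretch of 250 bases before the start given in RefSeq's promoter table is shown for C1qb and C1qc, both read 5′ to 3′ on the minus strand. The C1qb stretch is chr4:136886201-136886450 and the C1qc stretch is chr4:136892915-136893164. For C1qc this start lies inside the gene span above, so that the last 22 bases of the stretch overlap it, and positions below are counted from the table's start. Capitals mark GAGGAA or its reverse complement TTCCTC, the kind of core that PU.1 and Spic bind, and TGCTGA, which is part of the element bound by MAF factors.
C1qb: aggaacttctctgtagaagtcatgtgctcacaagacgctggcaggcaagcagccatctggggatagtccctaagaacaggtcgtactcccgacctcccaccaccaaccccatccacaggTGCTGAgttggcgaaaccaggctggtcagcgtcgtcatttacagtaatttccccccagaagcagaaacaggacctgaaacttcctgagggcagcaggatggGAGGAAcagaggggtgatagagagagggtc
C1qc: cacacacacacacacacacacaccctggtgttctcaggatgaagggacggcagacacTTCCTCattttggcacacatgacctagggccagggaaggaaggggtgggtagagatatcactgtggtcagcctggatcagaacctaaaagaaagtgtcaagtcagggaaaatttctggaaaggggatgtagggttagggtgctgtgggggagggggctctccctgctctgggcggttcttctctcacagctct

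GAGGAA, searched on both strands, occurred once in each stretch: in C1qb on the gene's own strand, at positions -30 to -25 from the start, and in C1qc on the other strand, at positions -193 to -188. Of 32851 mouse promoter stretches of this length, 23.3% held GAGGAA on either strand. The shorter core GGAA, which GAGGAA contains, occurred 4 times in C1qb and 5 times in C1qc on either strand. Of all stretches, 93.4% held it, 33.4% at least 4 times and 18.0% at least 5 times, with a median of 3. TGCTGA occurred once in C1qb and not in the C1qc stretch, against 16.1% of all stretches. The AP-1 words TGACTCA and TGAGTCA, searched as a pair and held by 4.46% of stretches, were in neither, nor was TATAAA, held by 12.4%. These matches only describe the letters and show no binding.

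The 3 chains followed the same order of populations. C1qa measured log2 12.96 in red pulp macrophages, 8.66 in Spic-positive monocytes and 4.35 in Spic-negative monocytes. C1qb measured 13.50 in red pulp macrophages, 10.04 in Spic-positive monocytes and 5.74 in Spic-negative monocytes on its brightest probe set. C1qc measured 12.74 in red pulp macrophages, 7.94 in Spic-positive monocytes and 3.89 in Spic-negative monocytes. Each chain was thus high in the macrophages, intermediate in the monocytes that carried Spic and lowest in the monocytes without it. In bulk samples such as these, fewer cells with C1q and less C1q RNA per cell cannot be told apart. Levels were read against a floor of log2 5.02, which is the median over the arrays of every probe set that is not a control. In Spic-negative monocytes C1qa and C1qc lay below this floor, near background, and C1qb lay above it, so the size of a difference from that array depends in part on background.

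The place of each chain among the 45037 probe sets of its own array shows the same spread. C1qa stood at percentile 99.6 on the macrophage array, 87.5 on the Spic-positive array and 38.5 on the Spic-negative array. C1qb stood at 99.9, 94.7 and 59.9 on the same arrays in that order. C1qc stood at 99.5, 82.2 and 29.6. The transcripts were therefore among the brightest of the macrophage array.

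**Figure D1:**
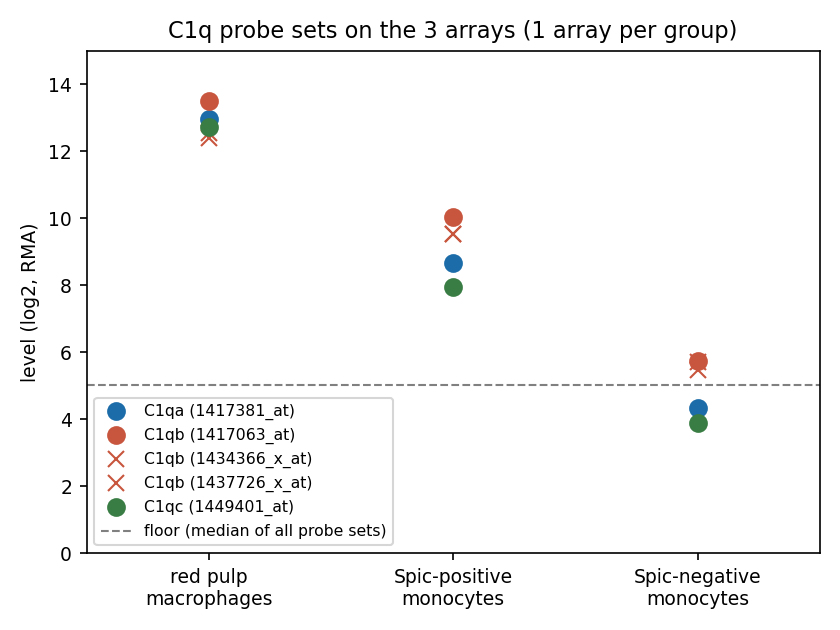
Level of each C1q probe set (log2, RMA) on the 3 arrays, 1 array per group. Filled circles are the probe sets used for the gene, crosses the further probe sets of C1qb, and the dashed line is the floor of 5.02. All 5 probe sets run in the order red pulp macrophages, Spic-positive monocytes, Spic-negative monocytes, and only C1qa and C1qc fall below the floor, both in Spic-negative monocytes.

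All 3 chains were higher in monocytes with Spic than in those without. C1qb, which lay above the floor on every array, was higher by 4.30, or 19.7-fold. The Spic-negative levels of C1qa and C1qc were under the floor, so only a lower bound can be given for them. With the floor in place of the lower level, an alternative chosen after seeing the data, C1qa was higher by 3.63, or at least 12.4-fold, and C1qc by 2.92, or at least 7.58-fold. With the levels as deposited the differences were 4.31 for C1qa and 4.06 for C1qc, and the mean of the chains was 4.22. As deposited, all 3 passed 4-fold, as did 0.663% of the 12375 genes above the floor, and with the floor they passed it too. C1qa, C1qb and C1qc ranked 4, 5 and 7 among these genes as deposited, and 8, 4 and 21 with the floor. The ranks as deposited did not change with median centring, a further quantile normalization or cyclic loess, and were 3, 6 and 7 with the mean and 3, 8 and 6 with the median of each gene's probe sets.

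Hybridization controls, which are spiked in at a fixed amount, were not equal on these arrays. All 18 were brighter on the Spic-positive than on the Spic-negative array, with a median difference of 2.16, against 0.07 for macrophages over Spic-negative monocytes. The 5′ probe set of Gapdh differed by -1.60 between the monocytes, against 0.17 for its 3′ probe set, while the 5′ probe set of beta-actin differed by 0.33 and its 3′ probe set by 0.16. Such pairs read how complete the labelled RNA is, and here they moved in different ways. The part of these controls in the C1q differences was not tested. The scalings tried left these controls out and so could not show their part. Under them the mean of the chains ran from 4.15 to 4.40.

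Against Spic-negative monocytes, red pulp macrophages had C1qb higher by 7.76, or 217-fold. With the floor in place of the lower level, C1qa was higher by 7.93, or at least 244-fold, and C1qc by 7.72, or at least 210-fold. The range of the chains was 1.09 as deposited and 0.22 with the floor. The floor gives C1qa and C1qc the same lower level, so the smaller range does not show that the chains were alike. As deposited, the differences were 8.61 for C1qa and 8.85 for C1qc. At least 4-fold higher levels were measured for 7.38% of all genes. C1qa, C1qb and C1qc ranked 4, 7 and 3 as deposited, and 4, 5 and 6 with the floor. The rank of C1qb was 12 with the mean and 20 with the median of each gene's probe sets.

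Against Spic-positive monocytes, the macrophages had C1qc higher by 4.79, C1qa by 4.30 and C1qb by 3.46, with 7.22% of all genes at least 4-fold higher. The ranks were 77, 114 and 204, so many genes differed more between these arrays than the C1q chains did. Here every level lay above the floor. The chains spanned a range of 1.34 in this comparison. Between the monocytes the range was 0.25 as deposited and 1.38 with the floor, so the data do not settle in which comparison the chains were more alike. Between 2 arrays, probe sets of the same gene differed by a pooled SD of 0.85 for macrophages over Spic-positive monocytes and of 0.48 between the monocytes, over 5509 genes with several probe sets above the floor.

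The 3 probe sets of C1qb allow a check within 1 gene. The further probe sets measured 12.39 and 12.54 in red pulp macrophages, 9.53 and 9.53 in Spic-positive monocytes, and 5.69 and 5.45 in Spic-negative monocytes. Between the monocyte arrays they differed by 3.84 and 4.08, and between macrophages and Spic-positive monocytes by 2.87 and 3.01. On each of its 3 probe sets C1qb thus differed less than C1qa and C1qc did between macrophages and Spic-positive monocytes. Both further probe sets are of the type whose probes can bind other transcripts. The probe sets share the RNA and cover probe error only.

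The level of C1qc minus that of C1qb was -0.76 in macrophages, -2.10 in Spic-positive monocytes and -1.86 in Spic-negative monocytes. The level of C1qa minus that of C1qb was -0.55 in macrophages, -1.39 in Spic-positive monocytes and -1.39 in Spic-negative monocytes. Different probe sets have different brightness, so these values show only how the gaps moved between arrays and not which chain had more RNA. The gaps to C1qb were wider in Spic-positive monocytes than in macrophages. In Spic-negative monocytes they rest on levels below the floor. With the floor, which sets C1qa and C1qc to the same level, both were -0.72.

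On the log scale, the Spic-positive monocytes lay between the other arrays. The monocyte difference, taken as a share of the difference of macrophages over Spic-negative monocytes, was 0.50 for C1qa, 0.55 for C1qb and 0.46 for C1qc. Among 420 genes, 3.39% of those above the floor, that macrophages had at 8-fold or more over Spic-negative monocytes, the median of this value was 0.13, with quartiles of 0.03 and 0.28. Of these genes 44, or 10.5%, reached the lowest C1q value, the C1q genes included. With levels below the floor set to the floor, C1qa came to 0.46 and C1qc to 0.38, and the median of the 306 genes that then passed 8-fold was 0.09, with 46 of them at or above the lowest C1q value.

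The unlogged signal gives another view of the same levels. In Spic-positive monocytes the C1qa signal was 5.08% of that in macrophages, the C1qb signal 9.09% and the C1qc signal 3.60%. On the further probe sets of C1qb the share was 13.7% and 12.4%. In Spic-negative monocytes the C1qb signal was 0.462%, and C1qa and C1qc were below the floor.

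Other genes typical of red pulp macrophages had shares of the macrophage signal from 0.490% to 28.0% in Spic-positive monocytes. Of 12 such genes, 9 exceeded their Spic-negative level by 2-fold or more in Spic-positive monocytes, against 3.49% of all genes. The median was 1.92, against -0.06 over all genes. Spic is among the 9, and the sort for its reporter fixed its direction. With the mean of each gene's probe sets the count was 8. Mertk, a receptor for the uptake of dying cells, Slc40a1, the iron exporter ferroportin, and Vcam1, an adhesion receptor, had shares within the C1q range, at 4.09%, 4.16% and 6.26%. For Slc40a1 and Vcam1 this held on the probe sets used only. On the further probe sets macrophages exceeded Spic-positive monocytes by 5.44 for Slc40a1 and by 4.97 and 5.13 for Vcam1. Each exceeded the 4.79 of C1qc, so those shares lay below the C1q range. Cd5l, which encodes a secreted macrophage protein, and Cd163, the hemoglobin scavenger receptor, also lay below that range, at 0.676% and 0.490%. Cd163 was under the floor in both monocyte populations, at 3.81 in Spic-positive and 4.49 in Spic-negative monocytes, beside 11.48 in macrophages. On the probe sets used, the other 7 genes lay above the C1q range, up to Adgre1, which encodes the surface antigen used to sort the macrophages. The further probe sets of C1qb gave shares of 13.7% and 12.4%. Of the 7 genes, only Nr1h3, at 23.4%, and Adgre1 lay above 13.7%. The macrophage genes thus did not stand at 1 common share of the macrophage level. On the probe sets used, the C1q chains were in the lower part of their range.

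**Figure D2:**
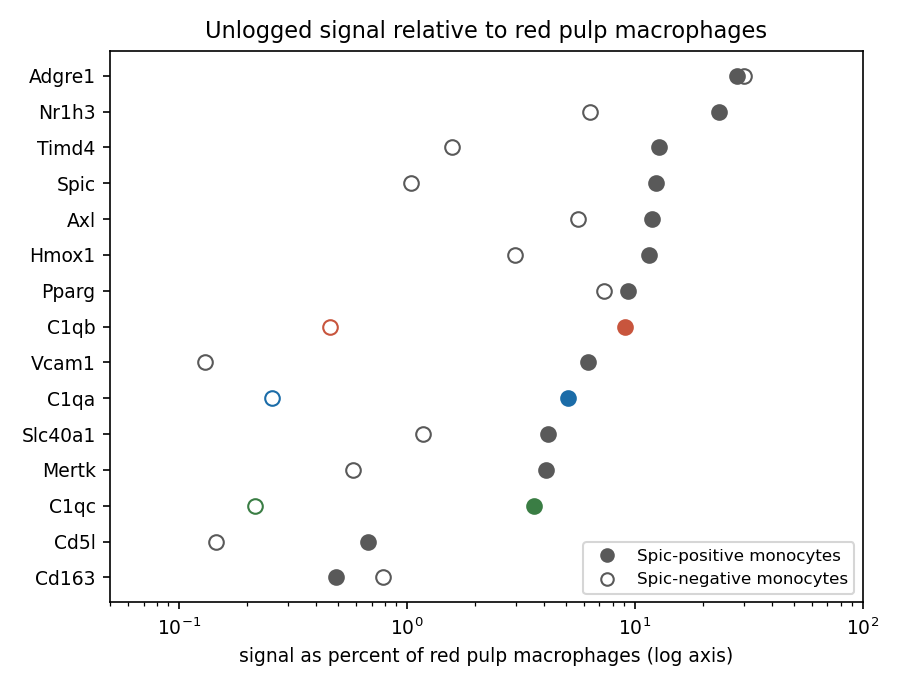
Unlogged signal in Spic-positive monocytes (filled) and Spic-negative monocytes (open) as a percent of the signal in red pulp macrophages, on a log axis, for the C1q chains (coloured) and 12 genes typical of red pulp macrophages (grey), from 1 array each. On the probe sets used, C1q lies between 3.60% and 9.09% in Spic-positive monocytes. The full range there runs from 0.490% for Cd163 to 28.0% for Adgre1.

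Few genes shared the profile of the C1q chains. Only 8 genes, or 0.0646% of those above the floor, passed 8-fold both for Spic-positive over Spic-negative monocytes and for macrophages over Spic-positive monocytes. They were the 3 C1q genes, Vcam1, Spic, the disintegrin protease gene Adamdec1, the semaphorin gene Sema6d and Asb2, a ubiquitin ligase subunit. With levels below the floor set to the floor, 4 of the 8 remained on the probe sets used: C1qa, C1qb, Vcam1 and Spic. C1qc, Adamdec1, Sema6d and Asb2 then differed by 2.92, 2.84, 2.79 and 2.08 between the monocytes, short of the 3 that 8-fold needs. As deposited, a further probe set of C1qb also fell short of 3, at 2.87 for macrophages over Spic-positive monocytes. Further probe sets of Spic and Vcam1, given below, fell short as well. Likeness was also measured as the Euclidean distance between a gene's differences in these comparisons, over 3 arrays, and the mean of the C1q genes. The nearest gene was Adamdec1 at a distance of 1.09, followed by Sema6d at 1.15, Asb2 at 1.21, Spic at 1.34 and Vcam1 at 1.37. Next came Mertk at 1.47, the potassium channel gene Kcnj10 at 1.51, the scavenger receptor gene Marco at 1.64, the guanylate-binding protein gene Gbp8 at 1.67 and Timd4, a phosphatidylserine receptor gene, at 1.71. The C1q genes themselves lay within 0.73 of their own mean, which they set. The nearest genes are all higher in macrophages than in both monocyte populations, which follows from how they were picked.

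Adamdec1 measured 12.17 in red pulp macrophages, 7.86 in Spic-positive monocytes and 4.72 in Spic-negative monocytes. Spic measured 12.23 in red pulp macrophages, 9.22 in Spic-positive monocytes and 5.66 in Spic-negative monocytes. The sort for the Spic reporter fixes this order for Spic, and the order of the C1q genes was the same. Between the monocytes Vcam1 differed by 5.58 on the probe set used, and by 1.63 and 1.07 on its further probe sets. Sema6d differed by 3.12 there, and by -0.15 to 1.11 on its 3 further probe sets, and Marco by 3.34, and by 1.09 on its other. The places of Vcam1, Sema6d and Marco in this list thus depended on the probe set. Spic differed by 3.56 and 4.97 between the monocytes on its probe sets. For macrophages over Spic-positive monocytes it differed by 3.01 and 2.18 on the same probe sets. Spic thus passed 8-fold in both comparisons on the probe set used only. Under the 7 alternatives, 8 to 10 of these 10 genes were again among the 10 nearest.

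**Figure D3:**
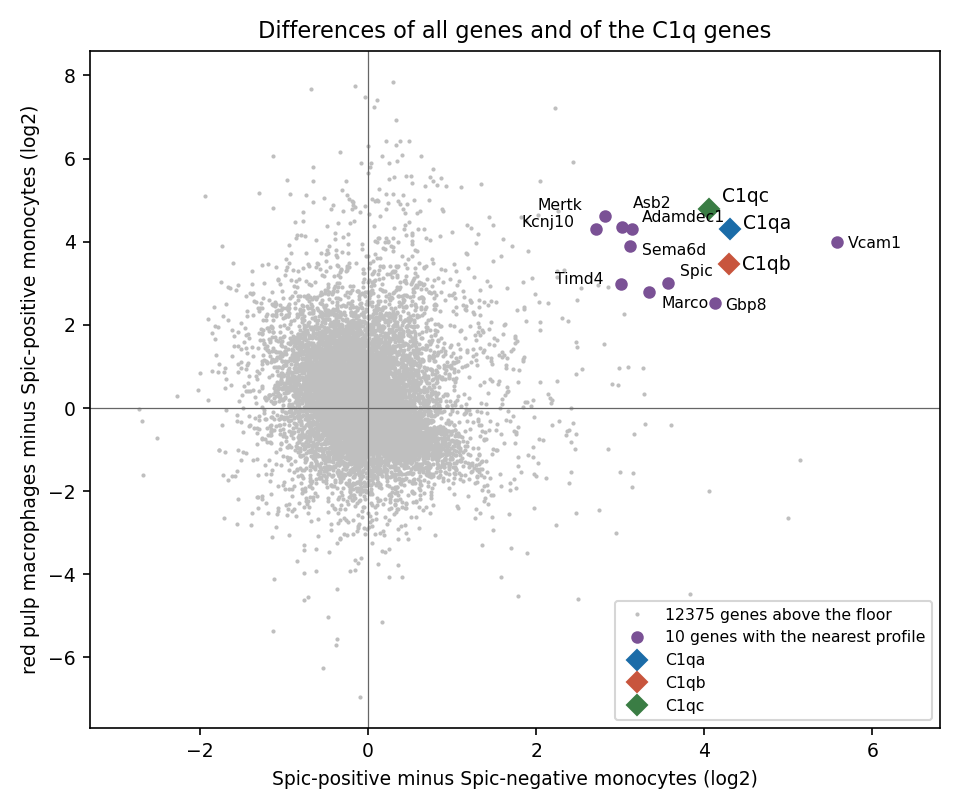
Log2 difference of Spic-positive minus Spic-negative monocytes (horizontal) and of red pulp macrophages minus Spic-positive monocytes (vertical) for the 12375 genes above the floor (grey), the 10 genes with the nearest profile (purple) and the C1q chains (diamonds), from 1 array per group. The chains lie at 4.06 to 4.31 across and at 3.46 to 4.79 up, in a sparsely filled corner, with the levels as deposited.

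Few of the proteases that C1q carries and of the proteins they cut could be read. Of 8 early classical pathway genes, 3 had a probe set used here and 2 lay above the floor. C1ra, which encodes the protease C1r, measured 7.35 in red pulp macrophages, 4.69 in Spic-positive monocytes and 5.62 in Spic-negative monocytes. Its difference between the monocytes was -0.93, opposite in sign to that of the chains, and its level in Spic-positive monocytes was below the floor. C2, whose product forms part of the C3-cutting enzyme, measured 8.82 in red pulp macrophages, 5.53 in Spic-positive monocytes and 5.46 in Spic-negative monocytes. C2 differed by 0.08 between the monocytes on this probe set, and by 1.11 and 1.20, past 2-fold, on its further probe sets. On those, the Spic-negative levels, 4.16 and 4.14, were below the floor. The Spic-positive levels, 5.27 and 5.34, were near it, so these calls depend on background. C1s1, which encodes C1s, was below the floor on every array, at 4.28, 4.16 and 3.53 in the same order. Both bright enough to count passed 2-fold in macrophages over Spic-negative monocytes, C1ra by 1.72 and C2 by 3.36, against 19.6% of all genes.

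Of 8 regulators of C1 and of the later steps, 7 had a probe set and 5 lay above the floor. Between the monocytes 1 of these, Cd55 (decay-accelerating factor), passed 2-fold upward, by 1.31, and none passed it downward, against 3.49% and 3.06% of all genes. The Spic-negative level of Cd55 was below the floor, and with the floor the difference was 0.32, so that no call was left. On its further probe sets Cd55 differed by 0.65 and 0.00. The median of the 5 was 0.37. In macrophages over Spic-negative monocytes 3 of the 5 passed 2-fold upward, against 19.6% of all genes. The median was 1.43, against 0.03 over all genes. The 3 were Cd55 by 3.36, Cd59a, which blocks the membrane attack complex, by 2.29, and Serping1, the C1 inhibitor that removes C1r and C1s, by 1.43. Serping1 measured 5.20 in red pulp macrophages, 4.35 in Spic-positive monocytes and 3.78 in Spic-negative monocytes, so it was near the floor at its highest, and with the floor in place of lower levels its call was lost and the other 2 remained.

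Of 13 genes for proteins that bind C1q, 9 lay above the floor. None of the 9 passed 2-fold between the monocytes (median 0.13), against 3.49% of all genes upward and 3.06% downward. At such shares, none among 9 says little. Lair1, at 0.96, passed under 2 of 6 alternatives, with 1.14 at most. In macrophages over Spic-negative monocytes, 2 passed 2-fold upward and 3 downward, against 19.6% and 11.3% of all genes. The upward count is near the share of all genes, and the median was -0.54. C1qbp, which encodes a mitochondrial protein that binds the globular heads, was higher by 2.38, and Lair1, an inhibitory receptor for collagen-like stalks, by 1.98. Cd93, once named as a C1q receptor, measured 6.73 in red pulp macrophages, 10.14 in Spic-positive monocytes and 10.90 in Spic-negative monocytes. On this probe set the order is the reverse of that of the C1q chains. Between the monocytes Cd93 differed by -0.76 on it and by -0.52 to 1.20 on its 4 further probe sets. The difference of macrophages from Spic-negative monocytes was -4.17 for Cd93, and -0.72 with the median of its probe sets, and was -1.27 for the scavenger receptor gene Scarf1. Lrp1, an uptake receptor that works with calreticulin, differed by -1.12 on the probe set used and by 2.41 on the other, so its direction is unsettled. Calr, which encodes calreticulin, differed by -0.25.

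**Figure D4:**
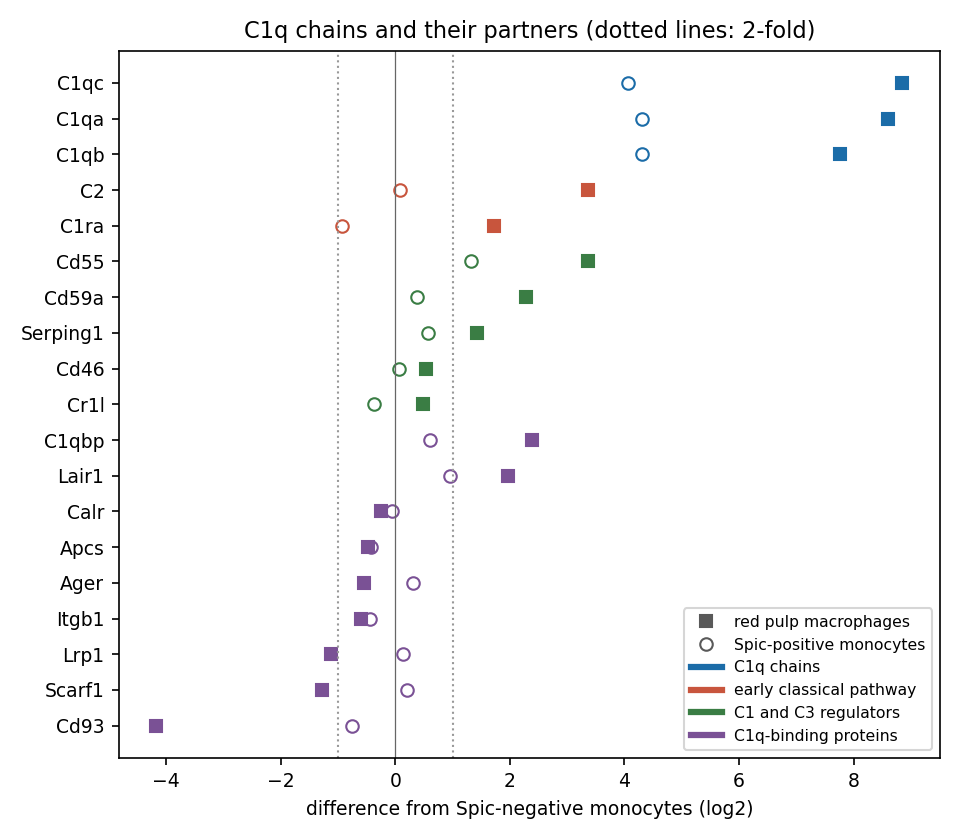
Log2 difference from Spic-negative monocytes for red pulp macrophages (squares) and Spic-positive monocytes (open circles), from 1 array each, for the C1q chains and for the genes of 3 lists above the floor; dotted lines mark 2-fold. As deposited, the chains exceed 4 in Spic-positive monocytes, while of the other genes shown only Cd55 passes 2-fold there, at 1.31.

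Related genes of the C1q family were mostly dim. Of 26 genes for other proteins with a globular C1q head, 24 had a probe set and 9 lay above the floor. None of the 9 passed 2-fold between the monocytes (median 0.15), against 3.49% of all genes upward and 3.06% downward. At such shares, none among 9 says little. Caprin2, at -0.99, passed under 3 of 6 alternatives. In macrophages over Spic-negative monocytes 2 passed 2-fold upward and 2 downward, with a median of -0.11, against 19.6% and 11.3% of all genes. C1qtnf12, a secreted relative of adiponectin, was higher by 3.37 and the cerebellin gene Cbln1 by 3.25, while the extracellular matrix genes Emilin1 and Emilin2 differed by -2.42 and -2.55. C1qtnf12 measured 11.04 in red pulp macrophages, 6.87 in Spic-positive monocytes and 7.67 in Spic-negative monocytes, so it did not follow the chains between the monocytes.

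The collagen-tailed lectins resemble C1q in shape and start the lectin pathway. Of 11 genes for them and their proteases, 5 lay above the floor and 2, both ficolins, passed 2-fold upward between the monocytes, against 3.49% of all genes, with a median of 0.69. Fcna measured 13.82 in red pulp macrophages, 7.90 in Spic-positive monocytes and 5.46 in Spic-negative monocytes. Fcnb measured 6.59 in red pulp macrophages, 8.68 in Spic-positive monocytes and 7.22 in Spic-negative monocytes. Fcna thus kept the order of the C1q chains with a smaller monocyte difference, of 2.44, whereas Fcnb was highest in Spic-positive monocytes.

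Of 9 transcription factor genes linked to C1q or to macrophage identity, 8 were measured, all above the floor. Between the monocytes 2 passed 2-fold upward, against 3.49% of all genes, with a median of 0.29. They were Spic, whose direction the sort fixed, and Nr1h3, the liver X receptor alpha, higher by 1.88. Under 3 of 6 alternatives Maf, at 0.91, passed as well. Spi1, which encodes PU.1, measured 9.75 in red pulp macrophages, 10.45 in Spic-positive monocytes and 10.28 in Spic-negative monocytes. Irf8 measured 12.14 in red pulp macrophages, 11.06 in Spic-positive monocytes and 11.08 in Spic-negative monocytes. Both were well above the floor on every array and differed far less than the C1q chains. In macrophages over Spic-negative monocytes 6 of the 8 were at least 2-fold higher, against 19.6% of all genes, among them Pparg by 3.77. Spic is among the 6, and the sort fixed its direction here too. Ppard was 2-fold lower, with -1.62, against 11.3% of all genes. With the mean or median of each gene's probe sets, 4 were higher and the call of Ppard was lost.

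The measured genes around the C1q cluster showed no difference as large as those of the C1q chains. The 3 nearest genes on each side that had a probe set here were Kdm1a, Tex46 and Lactbl1 on the C1qb side and Epha8, Zbtb40 and Wnt4 on the C1qa side, at 30.6 to 379 kb. Of these, 4 lay above the floor and none passed 2-fold in any comparison, on the deposited scale or under 6 alternatives. Among these 4, Epha8 and Wnt4 were near the floor, at 5.14 and 5.28 on their brightest array. Of all genes, 22.0% were higher and 11.6% lower by 2-fold in macrophages over Spic-positive monocytes. Between the monocytes the shares were only 3.49% and 3.06%, so none of 4 says little there. Epha8, the closest, measured 4.39 in red pulp macrophages, 4.71 in Spic-positive monocytes and 5.14 in Spic-negative monocytes. Zbtb40 measured 6.77 in red pulp macrophages, 7.07 in Spic-positive monocytes and 6.87 in Spic-negative monocytes. Kdm1a, the brightest of them, measured 9.54 in red pulp macrophages, 9.33 in Spic-positive monocytes and 9.68 in Spic-negative monocytes.

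**Figure D5:**
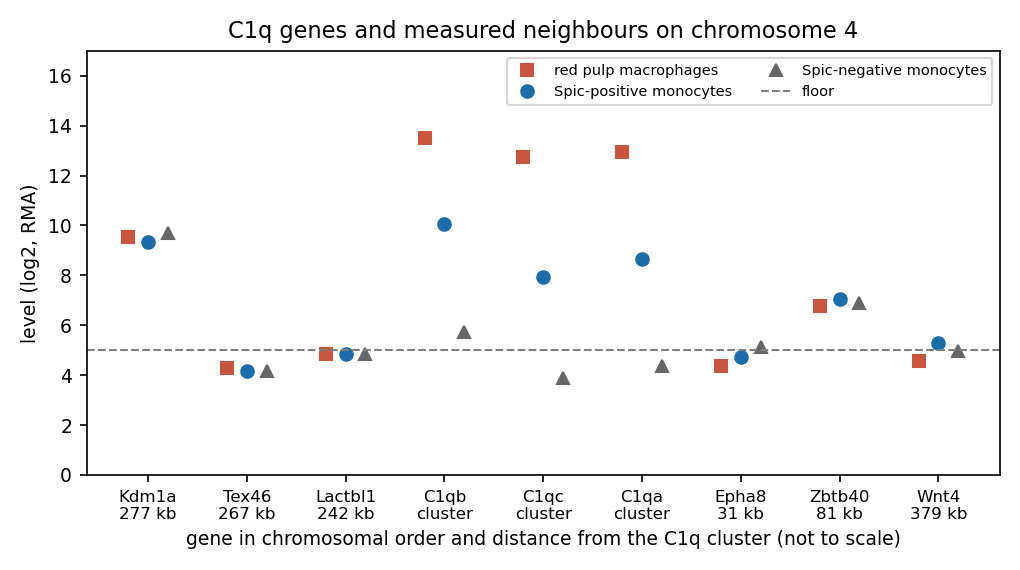
Level (log2, RMA) of the C1q genes and of the 3 nearest measured genes on each side, in chromosomal order, from 1 array per group; numbers under the names are distances from the cluster in kb. The populations are far apart for the C1q genes and lie close together for Kdm1a, Zbtb40 and the other neighbours.

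Markers of other cell types also differed between the arrays, although cells bearing CD4, CD8 or B220 had been removed before the monocyte sort. Of 9 B cell markers, 8 passed 2-fold upward between the monocytes, and 7 with the floor, against 3.49% of all genes. Their summed unlogged signal was 24764 in red pulp macrophages, 10435 in Spic-positive monocytes and 3398 in Spic-negative monocytes, most of it from Ighm, whose monocyte difference turned sign under 2 alternatives. All 9 lay above the floor in macrophages and Spic-positive monocytes, and 3 lay below it in Spic-negative monocytes. Of 5 dendritic cell markers above the floor, 3 passed 2-fold upward between the monocytes, against the same 3.49%: Ccr7 by 4.05, Itgax by 3.14 and Zbtb46 by 1.25, which lost the call under 2 of 6 alternatives and with the floor. Flt3 and Cd209a differed by -0.56 and -0.34. The summed signal of all 6 measured markers was 968 in red pulp macrophages, 2776 in Spic-positive monocytes and 808 in Spic-negative monocytes, with Xcr1 below the floor on every array. Of 5 erythroid markers bright enough to count, all 5 passed 2-fold upward in macrophages over Spic-negative monocytes, against 19.6% of all genes. The summed signal of all 7 measured was 10842 in red pulp macrophages, 146 in Spic-positive monocytes and 130 in Spic-negative monocytes. For 5 endothelial markers it was 4000 in red pulp macrophages, 401 in Spic-positive monocytes and 162 in Spic-negative monocytes, and Stab2 alone gave 3717, 84.0 and 20.3 of these in the same order. The part of these markers' cells in the C1q values was not tested. All 7 measured markers of classical monocytes were lower by 2-fold or more in macrophages than in Spic-negative monocytes, against 11.3% of all genes. Among them, Itgam (CD11b) measured 5.23 in red pulp macrophages, 7.38 in Spic-positive monocytes and 8.68 in Spic-negative monocytes. Both monocyte populations were sorted as positive for CD11b, so the call of Itgam is not independent of the sort. Adgre1 measured 12.50 in red pulp macrophages, 10.67 in Spic-positive monocytes and 10.77 in Spic-negative monocytes.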

How the data were processed

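RNA of 3 sorted populations was labelled as biotin cRNA with a 2-cycle kit, per the labels' protocols, and the authors deposited log2 values per probe set made with RMA, per the submitters' processing notes. The sources used here give no RMA version, and the log2 scale was inferred from the range of the values. RMA with quantile normalization hides differences in total RNA. Of 45101 probe sets, 64 controls were left out and 34945 had 1 symbol. Symbols were updated by gene identifier with RefSeq's table for GRCm38.p6. A gene was represented by whichever of its probe sets was brightest on average. Counts cover the 12375 genes whose brightest array passed the floor.

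Named were the members, genes of fixed lists, the 10 genes nearest in profile, and genes 8-fold higher in both comparisons. Members and lists were chosen with earlier results of these data known. Alternatives tried were averaging a gene's probe sets (mean or median), no _x_at or _s_at sets, median centring, quantile normalization, cyclic loess and other floors. Tools were Python 3.11.15, pandas 2.3.3, numpy 2.4.6, R 4.3.3 and limma 3.58.1, and counts were tested on simulated data. No test was run, since each group had 1 array.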

Additional observations from a re-analysis of the deposited data

How the results depend on the processing

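The C1q differences kept their direction under every alternative run. The mean of the chains ran from 3.62 to 4.40 between the monocytes, from 7.80 to 8.45 for macrophages over Spic-negative monocytes and from 4.04 to 4.30 for macrophages over Spic-positive monocytes. The lowest of these, 3.62 against 4.22, came from setting levels below the floor to the floor, because C1qa and C1qc lay below it in Spic-negative monocytes, and it left 4 of the 8 genes past 8-fold in both comparisons. The position of Spic-positive monocytes ran from 0.46 to 0.52. The count of genes at least 2-fold different between the monocytes was 811, and 534 with the mean of probe sets and 518 with the higher floor, which tests fewer genes. Of the 811, 53.3% were higher in Spic-positive monocytes, and 42.4% after median centring. For macrophages over Spic-positive monocytes, the median difference of all genes was 0.10 on the deposited scale, 0.23 after median centring and -0.03 after quantile normalization. No paired analysis was possible because each group had 1 array. The limits are this single array, the dim C1qa and C1qc levels in Spic-negative monocytes, and the brighter hybridization controls on the Spic-positive array.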
